A study of Drosophila melanogaster with 24 samples.

Results

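The abundant long non-coding RNAs (lncRNAs) of adult fly heads were followed over age, sex and histone genotype. The members were chosen by their name and their measured level: the genes whose FlyBase symbol begins with lncRNA:CR, apart from lncRNA:CR45625, with a mean normalized count of at least 200 over 23 head libraries. A normalized count is a gene's read count divided by a factor that puts libraries of different depth on one scale. Of 17606 genes in the table, 1897 had a symbol of this kind and 51 reached the mean of 200, while 1845 stayed under it. The 3 members just inside were CR45180 (mean 212), CR43870 (213) and CR46125 (232), and the 3 genes just outside were CR45979 (186), CR45758 (187) and CR45409 (193); symbols are written from here on without the prefix. Because a mean over all libraries chose the members, a gene can belong to the set through the groups in which it is high. In 37 of the 51 every group mean reached 200, and in the other 14 at least 1 group stayed under it, so counts with age and genotype are also given for the 37. All 51 passed the filter on low counts and were tested.

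An lncRNA is a transcript longer than most small RNAs that has no long open reading frame. Some act as RNAs, as the roX RNAs do when they guide the dosage compensation complex to the male X chromosome, some are the primary transcripts from which a microRNA (miRNA) is cut, and for many no role is known. A miRNA is a short RNA that pairs with messenger RNAs and lowers their output. Histone H3.3 is the variant of histone H3 that is laid down outside replication, and it is the main route by which non-dividing cells such as neurons renew their chromatin. Its lysine 36 (K36) carries methyl marks in transcribed genes, and the K36R change replaces it with an arginine that cannot be methylated.

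Total RNA depleted of ribosomal RNA was sequenced from heads of young flies (0 to 2 days after eclosion) and old flies (21 to 25 days), in 3 libraries for each combination of age, sex and genotype, each from 10 to 25 flies. H3.3Anull flies (labelled H3.3Adelta) lacked H3.3A, through the H3.3A2x1 null allele over the deficiency Df(2L)Bsc110, and kept wild-type H3.3B, so the control is itself a fly with 1 of its H3.3 genes removed. H3.3K36R flies (labelled H3.3BK36R) carried the same H3.3A alleles together with the K36R change in H3.3B, and the labels give a y w X chromosome for both genotypes. Reads counted on genes ranged from 21263006 to 42763126 per library. The labels say nothing of which flies were kept or processed together, so p-values measure only the spread between these libraries, which may in part be technical.

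Young male H3.3K36R replicate 2, in which markers of male reproductive tissue had a mean log2 level of 10.5 against at most 4.37 elsewhere, was left out, so that young male H3.3K36R heads rest on 2 libraries and every other group on 3. Those 2 differed from each other. In young male H3.3K36R replicate 3 the 5 neuron markers had a mean log2 level of 13.8 against 15.0 to 15.2 in the other 10 young libraries, and the 5 fat body markers 15.0 against 12.4 to 13.7 in the other 4 young male libraries. Its count for the yolk protein gene Yp1, which is normally female, was 56504 against at most 1282 in those 4. Yp1 is among the 5 fat body markers, so the 2 observations are not separate. The library's count for the male-specific roX1 (39681) was below the 50086 to 65843 of the other males and far above the 189 to 3195 of females. High Yp1 was not confined to this male library. Old male H3.3Anull replicate 3 had 253930 and old male H3.3K36R replicate 1 had 51098, against at most 5490 in the other old males, and both were kept. Young male H3.3K36R replicate 3 was the lowest of the 23 libraries for 11 members and the highest for 4. For the members, the median absolute difference between the 2 replicates was 0.48 on the log2 scale, while in the other groups it was 0.097 to 0.16 between a library and the rest of its group. Photoreceptor markers were high in every library (mean log2 level 15.8 to 16.4). Counts of calls, and the values of the members that the results on young H3.3K36R heads turn on, are therefore also given without replicate 3. In bulk heads, fewer cells of a type and less RNA per cell cannot be told apart.

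Together the 51 lncRNAs took 0.726% to 1.12% of all normalized counts in a library and 87.4% to 93.5% of the counts of all lncRNA:CR genes. Of them, 3 stood far above the rest and made up 77.5% to 86.3% of the set. Per kb of annotated exon, CR40469 reached 442929 normalized counts, CR34335 111765 and CR42862 10644, while the next in this order, CR43900, had 2597. CR40469 is a single exon of 214 nt near the tip of the X chromosome (chrX:122493-122706, dm6), and CR34335 is one of 361 nt (chrX:3545750-3546110) that lies within the transcribed region of DIP-alpha, on its strand, without touching its exons. CR42862 (chr3L:224106-230964) is spread over 3 exonic blocks of 5485 nt in all, of which 246 nt are shared with exons of CG33229 on the same strand. At the other end, CR46483 had 13.2 normalized counts per kb over 18196 nt of exon and CR46003 14.9 over 21024 nt.

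**Figure D1:**
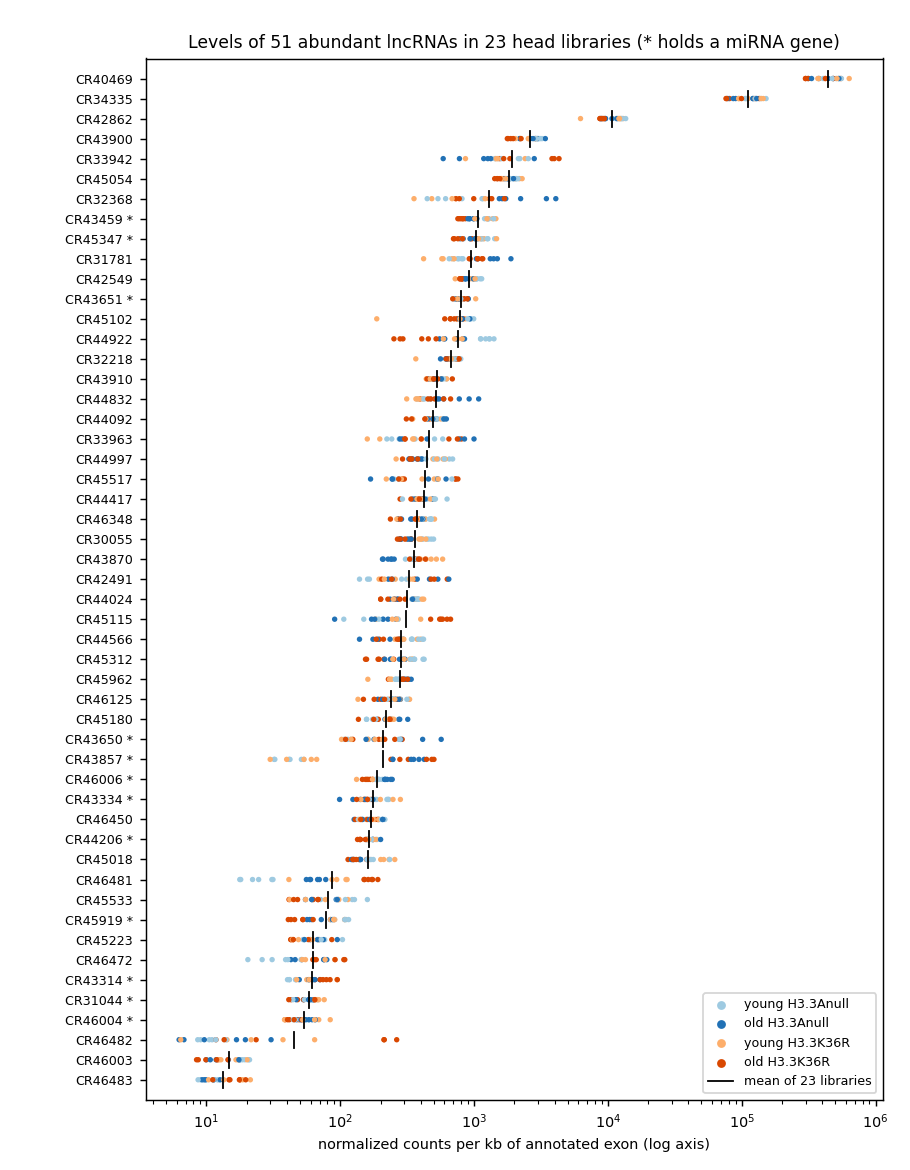
Normalized counts per kb of annotated exon (x axis, log scale) of the 51 lncRNAs in 23 libraries; each point is a library, coloured by age and genotype, the black bar is the mean of the 23, and an asterisk marks a lncRNA that holds a miRNA gene. CR40469, CR34335 and CR42862 lie well to the right of all others, and the widest spreads belong to CR46482 and CR43857.

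The median exonic length was 1670 nt and 29 members were a single exonic block. Lengths ran from 214 nt to 21024 nt. Chromosome arm 3L held 16 members (31.4%, against 19.7% of tested genes), the X chromosome 11 (21.6% against 16.1%) and chromosome 4 only CR44024. Exons of 9 members shared bases with exons of another gene on the same strand and those of 5 with exons of a gene on the opposite strand, whereas 20 members overlapped no other gene. The name the authors gave the table points to counts of the forward strand, a setting that the sources used here do not describe further, and reads from stretches shared on the same strand cannot be assigned with certainty.

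Primary miRNA transcripts were a large class, since 12 of the 51 held 14 miRNA genes on their own strand. They include the transcript of bantam (CR43334), a miRNA that promotes growth and blocks cell death, that of mir-277 and mir-34 (CR43459), of which mir-34 is known in flies for its role in brain ageing, and that of mir-8 (CR43650), a miR-200 relative that acts on insulin signalling in the fat body. Neuronal mir-124 lies in CR45919, and mir-14, which acts in steroid and fat metabolism, in CR43651. CR31044 holds mir-279 and mir-996, which shape olfactory neuron identity, and CR43314 holds bereft (mir-bft), which is needed for bristles of the eye. CR46006 and CR46004 hold mir-276a and mir-276b, CR44206 holds mir-184, CR45347 holds mir-4973 and CR43857 holds mir-275, with mir-305 starting 39 nt beyond its end. CR45054 is no host itself, but ends 600 nt before mir-317 in the same stretch of 3R as CR43459. These transcripts were long, with a median exonic length of 6668 nt against 1176 nt in the other members, and were lower per length, at a median of 182 normalized counts per kb against 377.

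Age moved more of these lncRNAs than sex or genotype did by count, and more of them fell than rose. In H3.3Anull heads 30 of 51 differed between old and young flies at an adjusted p under 0.05 (58.8%, against 41.9% of the 12493 genes tested), with 12 higher in old heads (21.5% of all genes were higher) and 18 lower (20.4%). In H3.3K36R heads 32 did (62.7% against 40.4%), 13 higher (20.5%) and 19 lower (19.9%). The adjusted p is that of limma on log2(normalized count + 1), after Benjamini-Hochberg adjustment over all tested genes, and each log2 fold change is on that scale, with its standard error (SE). Abundant genes are called more often, and among tested genes with a mean of at least 200 the shares called were 51.1% and 50.7%. The median log2 fold change of the members was -0.12 in H3.3Anull and -0.21 in H3.3K36R heads, beside 0.04 and 0.03 over all tested genes. Within the 37 members that reached 200 in every group, 7 were higher and 15 lower in H3.3Anull, and 6 and 16 in H3.3K36R heads. Without young male H3.3K36R replicate 3 the counts were 13 and 22 in H3.3Anull and 13 and 25 in H3.3K36R heads, where 46.2% and 43.8% of all tested genes were called. Under upper-quartile scaling the split in H3.3Anull heads was 13 higher and 13 lower. All 5 muscle markers were lower with age in both genotypes, as were 3 of 5 glia markers in H3.3Anull and 4 of 5 in H3.3K36R heads, and 3 and 2 of 5 neuron markers. Of the 4 ovary markers 3 were higher with age in H3.3Anull (median log2 fold change 3.18) and none was called in H3.3K36R heads, with mean log2 levels of 0.944 to 6.47 in old and 0.718 to 3.98 in young libraries. The highest ovary levels were in male heads, at 6.47 and 5.45 in old male H3.3Anull replicates 1 and 2, against at most 5.14 in female libraries. Of 5 photoreceptor markers 2 were higher and 2 lower in H3.3Anull and 3 lower in H3.3K36R heads, and of 5 fat body markers 2 and 1 were lower. Their part in the age differences was not tested.

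**Figure D2:**
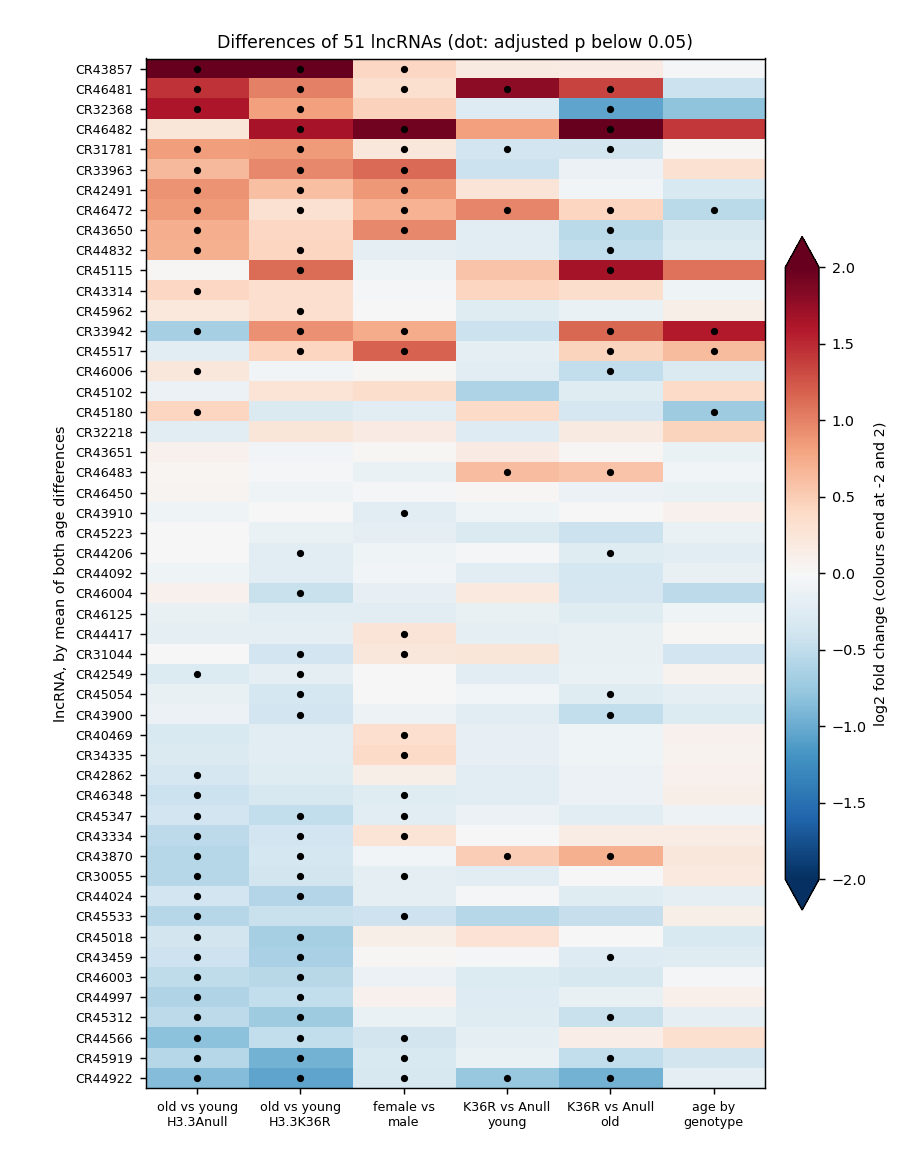
Log2 fold changes of the 51 lncRNAs (rows, ordered by the mean of both age differences) in 6 comparisons (columns); red is higher in the first-named group, blue lower, and a black dot marks an adjusted p below 0.05. CR43857 heads the list with the age differences of 2.96 and 2.94, and CR44922 closes it as the only member with a dot and a negative value in all of the first 5 columns.

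The 2 genotypes were alike in most of this: 40 of 51 members had the same sign of the age difference in both, 8 were higher with age in both (15.7%, beside 13.6% of all tested genes) and 14 lower in both (27.5% beside 14.9%). The called set differed for 16 others, 7 called in H3.3Anull heads alone and 9 in H3.3K36R heads alone, which by itself does not show that the genotypes differ. Only CR33942 was called in opposite directions (1.96%, beside 0.392% of all tested genes). Across the 51 members, the age differences of the genotypes, which come from separate libraries, had a Pearson r of 0.79 and a Spearman rho of 0.74, as a description of lncRNAs measured in the same libraries.

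The largest change of any member was that of CR43857, the transcript that holds mir-275 (chr2L:7423820-7425932). Young H3.3Anull heads had 69.7, 55 and 41.8 normalized counts in females and 66.8, 42.4 and 54 in males, and old ones 553, 506 and 442 in females and 322, 322 and 462 in males. Young H3.3K36R heads had 79.3, 87 and 51.9 in females and 69.9 and 39.1 in males, and old ones 576, 655 and 631 and 312, 421 and 364. Every old library was above every young one in both genotypes, with old H3.3K36R females highest. The young groups were all under 200, with the lowest mean 54.4 in H3.3Anull males. CR43857 thus entered the set through old heads, and the rule itself favoured a rise with age. CR43857 rose 7.76-fold in H3.3Anull (log2 fold change 2.96 ± 0.18, adjusted p = 2.4e-11) and 7.66-fold in H3.3K36R heads (2.94 ± 0.18, adjusted p = 5.06e-11). Neither age showed a called genotype difference.

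CR32368, a single exon of 410 nt between Tmem43 and syd, also rose with age. Old H3.3Anull females had 1674, 1423 and 914 and old males 708, 665 and 633 normalized counts, above the young libraries at 183 to 477. In H3.3K36R heads the old libraries lay at 300.4 to 691 and the young ones at 146 to 496, and these ranges overlap. Its log2 fold change with age was 1.62 ± 0.28 in H3.3Anull (adjusted p = 7.44e-05) and 0.82 ± 0.29 in H3.3K36R heads (adjusted p = 0.0296). The replicates of young females spread widely, from 183 to 469.96 in H3.3Anull.

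CR31781 (chr2L:16869346-16878300), among the 10 most abundant members, was at 1746 to 2214 normalized counts in young and 2786 to 5053 in old H3.3Anull heads, with no overlap. Young H3.3K36R heads had 1124 to 1900.02 and old ones 2464 to 3113, again apart. CR31781 rose by 0.84 ± 0.11 on the log2 scale in H3.3Anull (adjusted p = 2.82e-06) and by 0.86 ± 0.12 in H3.3K36R heads (adjusted p = 4.23e-06). CR42491, whose exons share 377 nt with RpL22 and a snoRNA gene, rose by 0.90 ± 0.14 in H3.3Anull (adjusted p = 3.05e-05) and by 0.60 ± 0.15 in H3.3K36R heads (adjusted p = 0.00328). The overlapping snoRNA:Psi18S-531 had log2 fold changes of 0.97 and 0.99, both called, whereas those of RpL22 mRNA were 0.19 and 0.12, neither called.

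Among the falls, CR44922 came first. This single exon of 2517 nt lies at chr3R:4375084-4377600, 4.38 Mb from the centromere-proximal end of 3R. Young H3.3Anull heads had 2825, 2814 and 3274 normalized counts in females and 3283, 3546 and 3072 in males, against 1390.4, 1521 and 1497 and 2136, 1852 and 2076 in old ones. In H3.3K36R heads the young values were 1893, 1799.5 and 2053 in females and 1874 and 1487 in males, and the old ones 740.2, 634 and 705 and 1146, 1309 and 1024. Old and young libraries did not overlap in either genotype, and old H3.3K36R females were lowest of all. CR44922 fell 1.81-fold in H3.3Anull (log2 fold change -0.86 ± 0.12, adjusted p = 6.28e-06) and 2.07-fold in H3.3K36R heads (-1.05 ± 0.13, adjusted p = 1.02e-06).

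The mir-124 transcript CR45919 fell in the same way. It had 509.7 to 663 normalized counts in young and 324 to 501 in old H3.3Anull heads, and 485 to 619 and 235 to 360.04 in H3.3K36R heads. Old and young were apart in both genotypes, with differences of -0.58 ± 0.08 in H3.3Anull (adjusted p = 3.07e-06) and -0.94 ± 0.08 in H3.3K36R heads (adjusted p = 7.3e-09). Further falls named by size were those of CR44566 (-0.81 in H3.3Anull and -0.49 in H3.3K36R heads), CR44997 (-0.60 and -0.49), CR45312 (-0.52 and -0.72) and CR45018 (-0.37 and -0.67), each called in both genotypes. CR45018 shares 1433 of its 4000 exonic nt with IP3K2, an inositol trisphosphate kinase gene, which fell too (-0.27 and -0.41, both called).

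Of the 3 dominant lncRNAs only CR42862 had a call with age. CR42862 was at 63226 to 74561 normalized counts in young and 48592 to 64199 in old H3.3Anull heads, and its fall (-0.34 ± 0.13, adjusted p = 0.0412) was lost on leaving out any of 11 libraries, and without young male H3.3K36R replicate 3 the values were -0.34 in H3.3Anull (adjusted p = 0.000116) and -0.46 in H3.3K36R heads (adjusted p = 2.07e-05). That replicate had 34254 normalized counts of it, the lowest of all libraries, and 136090 of CR40469, the highest. CR40469 and CR34335 had log2 fold changes with age of -0.30 and -0.29 in H3.3Anull heads, neither called.

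Sex divided fewer members than age, and the largest differences were in the direction of females. Of the 51, 23 differed between the sexes (45.1%, against 28.9% of all tested genes), 15 higher in females (14.1% of all genes) and 8 lower (14.8%). Some of them had a group mean under 200 and so had to be higher elsewhere to enter the set. Among tested genes with a mean of at least 200 the share called was 40.2%. The members' median log2 fold change, female against male, was 0.01, beside -0.02 over all tested genes. Without young male H3.3K36R replicate 3 the split was 13 higher and 14 lower in females, with 35.6% of all tested genes called. Upper-quartile scaling gave 10 and 8. Of the fat body markers 3 of 5 were higher in females and none lower, with mean log2 levels of 13.1 to 16.2 in female and 10.9 to 15.0 in male libraries. That list includes Yp1, itself normally female, at 667330 to 1912900 in female and 990 to 253930 in male libraries. The list level is therefore not a measure of fat body alone. Muscle markers had 4 of 5 higher and glia markers 3 of 5 lower, while neuron and photoreceptor markers had 1 of 5 lower each. Their part in these differences was not tested.

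CR45517, an X-linked exon of 774 nt (chrX:5428483-5429256), was the only member whose female and male libraries did not overlap over all ages and genotypes. Females lay at 316, 416 and 586 normalized counts (lowest, median and highest of 12 libraries) and males at 130.4, 211 and 233 (of 11). Its log2 fold change was 1.18 ± 0.08 (adjusted p = 1.16e-09). CR33963, also on the X chromosome and sharing 186 nt with Tis11, a gene for a protein of mRNA decay, was at 408, 721 and 1169.9 in females and 186, 327 and 522 in males. The log2 fold change was 1.13 ± 0.09 (adjusted p = 1.68e-08), and that of Tis11 itself 0.70, also called.

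The mir-8 transcript CR43650 (chr2R:16829095-16839494) was higher in females as well. Young H3.3Anull females had 1684, 2847 and 2919 normalized counts and males 1117, 1246 and 1184. Old H3.3Anull females had 5907, 2946 and 4294 and males 2168, 1622 and 1861. In H3.3K36R heads young females had 1671, 2150.1 and 1886 and males 1064 and 1254, and old females 3019.6, 2659 and 2237 and males 2022, 1291 and 1141. Within each of these 4 age and genotype pairs every female library was above every male one, and the log2 fold change was 0.96 ± 0.12 (adjusted p = 2.45e-06). CR46482 had the largest fitted sex difference, 1.93 ± 0.32 (adjusted p = 7.88e-05), and old H3.3K36R females held its 3 highest libraries.

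Lower in females were CR45533 (-0.42 ± 0.14, adjusted p = 0.0274), CR44566 (-0.37 ± 0.09, adjusted p = 0.0029), CR45919 (-0.31 ± 0.06, adjusted p = 0.000205) and CR44922 (-0.31 ± 0.09, adjusted p = 0.00897). The call of CR45533 was lost without young female H3.3Anull replicate 1, young male H3.3K36R replicate 1 or young male H3.3Anull replicate 2. On the X chromosome, where males carry 1 copy and dosage compensation raises its output, 7 of 11 members differed by sex and 6 were higher in females (54.5%), beside 24.1% of the 2011 tested X-linked genes. Besides CR45517 and CR33963 these were CR42491 (0.87), CR46472 (0.69), CR34335 (0.38) and CR40469 (0.33), the last not called when no filter on low counts was set. Of these, CR45517, CR42491 and CR46472 had a group mean under 200, with the lowest in H3.3Anull males (170, 116 and 179). Such members had to be higher elsewhere to enter the set, so their share is not on an equal footing with that of all X-linked genes. The X-linked members had a median log2 fold change of 0.35 and X-linked tested genes one of 0.07.

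The question of the study was how the K36R change alters transcription in young and in old heads. In young heads only 6 of the 51 members differed between H3.3K36R and H3.3Anull (11.8%, against 9.21% of all tested genes), 4 higher in H3.3K36R (4.8%) and 2 lower (4.4%). In old heads 20 differed (39.2% against 18.6%), 8 higher (10.0%) and 12 lower (8.59%). Among tested genes with a mean of at least 200 the shares called were 10% in young and 22% in old heads. The 6 of young heads were called in the same direction in old ones, 4 higher (7.84%, beside 2.73% of all tested genes) and 2 lower (3.92% beside 2.49%) at both ages, and the other 14 were called in old heads alone. Median log2 fold changes were -0.17 in young and -0.14 in old heads, beside 0.02 and -0.0025 over all tested genes. Of the 37 members at 200 or more in every group, none was higher and 2 were lower in young heads, and 1 was higher and 11 were lower in old heads. Nearly all increases were thus in the 14 members with a low group, 4 of which were higher in young and 7 in old heads, and a member with a low group had to be higher elsewhere to enter the set. Without young male H3.3K36R replicate 3, 9 members were called in young heads (6 higher, 3 lower, with 7.67% of all tested genes called) and 29 in old ones (10 and 19, with 23.5%), and without replicate 1, which leaves replicate 3 alone in its group, 12 were called in young heads (4 and 8). Upper-quartile scaling gave 6 higher and 1 lower in young heads, and DESeq2 on the recovered reads 5 and 5. In the 12 female libraries alone, a fit added after the data were seen, 4 were called in young heads (3 higher, 1 lower) and 9 in old ones (5 and 4), beside 2.69% and 10.2% of all tested genes. Of the marker lists, fat body had 1 of 5 genes higher in H3.3K36R at each age, and in old heads photoreceptor had 2 of 5 and glia 1 of 5 lower, while neuron, muscle and ovary markers had none called (the 4 ovary markers had a median of -1.86 in old heads). Their part in the genotype differences was not tested.

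**Figure D3:**
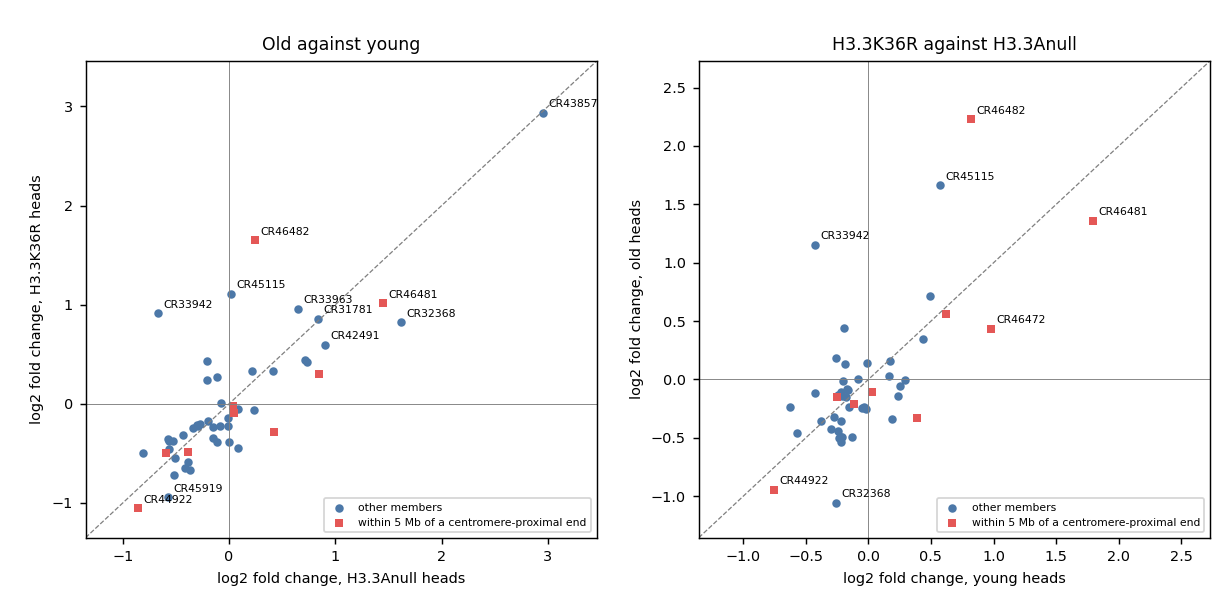
Each point is 1 of the 51 lncRNAs. On the left is the log2 fold change of old against young in H3.3Anull (x axis) and in H3.3K36R heads (y axis). On the right is that of H3.3K36R against H3.3Anull in young (x axis) and old heads (y axis). Squares mark members within 5 Mb of a centromere-proximal end, with chromosome 4 left out, and the dashed line is equality. CR43857 sits at 2.96 and 2.94 on the left, and on the right CR46481, CR46482 and CR45115 lie high and CR44922 low.

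CR46481 was the clearest increase. It is a single exon of 3704 nt at chr2R:2862767-2866470, 2.86 Mb from the start of 2R, and 110 nt of it lie in an annotated transposable element. Young H3.3Anull females had 91, 114 and 116 normalized counts and males 66.8, 81.9 and 65.7, whereas young H3.3K36R females had 409, 417 and 321 and males 349 and 153. Old H3.3Anull females had 259, 251 and 289 and males 207, 219.5 and 222, and old H3.3K36R females 558, 599 and 563 and males 646, 707 and 637. Every H3.3K36R library was above every H3.3Anull library of its age, and old libraries were above young ones within each genotype. The genotype difference was 3.47-fold in young heads (log2 fold change 1.79 ± 0.17, adjusted p = 3.08e-07) and 2.57-fold in old ones (1.36 ± 0.17, adjusted p = 3.31e-06). Without young male H3.3K36R replicate 3 the value in young heads was 2.03 (adjusted p = 2.98e-09). With age it rose by 1.45 ± 0.17 in H3.3Anull and 1.01 ± 0.17 in H3.3K36R heads (adjusted p = 4.12e-07 and 7.09e-05).

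CR46482 (chr3L:27821333-27881412), whose span overlaps eIF4B on the same strand but shares no exonic base with it, had the widest range of group means of any member, 30.4-fold. Old H3.3K36R females had 2107, 1692 and 1702 normalized counts. Old H3.3Anull females had 156, 243 and 134, old H3.3K36R males 188, 94 and 108 and old H3.3Anull males 49.9, 54.2 and 76.9. Young H3.3K36R females had 513, 298 and 172, young H3.3Anull females 87.9, 112 and 93.8, and young males of both genotypes 51.3 to 114. The high values were thus those of females with K36R, most of all old ones, and each old H3.3K36R library was above each old H3.3Anull library of its sex. Its genotype difference in old heads was 2.23 ± 0.44 (adjusted p = 0.000868), and its age difference in H3.3K36R heads 1.65 ± 0.46 (adjusted p = 0.00636), a call lost with weights for single libraries and with no sex covariate. In young heads the genotype difference of 0.82 ± 0.46 was not called (adjusted p = 0.287), nor was it without young male H3.3K36R replicate 3 (0.99, adjusted p = 0.28). In females alone it was called, at 1.60 (adjusted p = 0.0249), and the differences there were 3.40 for genotype in old heads (adjusted p = 0.000173) and 2.61 with age in H3.3K36R heads (adjusted p = 0.000112).

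CR45115, a single exon of 991 nt on 3L, separated the old genotypes in both sexes. Old H3.3K36R heads had 662, 549 and 469.5 normalized counts in females and 561, 577 and 623 in males, and old H3.3Anull heads 225, 208 and 179 and 258, 90 and 169.8. The young H3.3Anull libraries lay at 105 to 268 and overlapped those of young H3.3K36R heads, at 183 to 396. The difference was 3.17-fold in old heads (log2 fold change 1.66 ± 0.22, adjusted p = 1.19e-05), and with age CR45115 rose in H3.3K36R heads (1.11 ± 0.23, adjusted p = 0.0006) while its difference in H3.3Anull heads was 0.02 ± 0.22.

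CR46472 lies wholly inside annotated transposable elements on the X chromosome (chrX:21520175-21527105, 6931 nt), so its reads cannot be told with certainty from those of other copies. Young H3.3Anull heads had 271, 353 and 281 normalized counts in females and 181, 215 and 141 in males, and young H3.3K36R heads 527, 631 and 534 and 381 and 359.9. The groups were apart within each sex, with a log2 fold change of 0.98 ± 0.09 (adjusted p = 2.46e-07), and of 0.97 without young male H3.3K36R replicate 3 (adjusted p = 1.95e-06). Old heads had 550.2, 521 and 524 in H3.3Anull females, 357, 297 and 319 in males, 749.6, 634 and 737 in H3.3K36R females and 433, 459 and 446 in males, and the difference was 0.43 ± 0.09 (adjusted p = 0.00121). CR43870 was higher in H3.3K36R at both ages as well (0.49 ± 0.09 in young and 0.71 ± 0.09 in old heads, adjusted p = 0.00152 and 4.98e-06), as was CR46483 (0.62 ± 0.16 and 0.56 ± 0.15, adjusted p = 0.0159 and 0.0113). The call of CR46483 in young heads was lost without young male H3.3K36R replicate 1 and, as was that of CR43870, in females alone, where the values were 0.62 (adjusted p = 0.0706) and 0.39 (adjusted p = 0.135). Without replicate 3 they were 0.81 (adjusted p = 0.000488) and 0.42 (adjusted p = 0.00657), both called.

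Decreases in H3.3K36R were led in young heads by CR44922, the lncRNA that also fell with age. From the values given with age, all young H3.3K36R libraries (1487 to 2053) were below all young H3.3Anull libraries (2814 to 3546), and the old ones (634 to 1309) below the old (1390.4 to 2136). It was 1.69-fold lower in young (log2 fold change -0.76 ± 0.13, adjusted p = 0.000418) and 1.93-fold lower in old heads (-0.95 ± 0.12, adjusted p = 6.47e-06), and without young male H3.3K36R replicate 3 the young value was -0.62 (adjusted p = 0.00154). CR31781 was lower at both ages (-0.38 and -0.36, adjusted p = 0.041 and 0.0252), but the young call was lost on leaving out any of 7 libraries, young male H3.3K36R replicate 3 among them (-0.28, adjusted p = 0.146), and the old call on leaving out any of 4.

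In old heads CR32368, which rose with age in both genotypes, was lower in H3.3K36R (-1.05 ± 0.28, adjusted p = 0.0101). In females alone the value was -1.26 and was not called (adjusted p = 0.0897). CR43900, whose exons share 199 nt with the calmodulin gene Cam, had 1386, 1326 and 1306 normalized counts in old H3.3K36R females and 1632, 1656 and 1444 in males, against 2117, 1613 and 1945 and 2512, 2207 and 2034 in old H3.3Anull heads. Its log2 fold change was -0.50 ± 0.09 (adjusted p = 0.000348), and that of Cam -0.16, not called. CR43650 had a difference of -0.53 ± 0.16 (adjusted p = 0.0261), a call lost on leaving out any of 5 libraries.

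Of the 51 members, 9 lie within 5 Mb of the centromere-proximal end of 2L, 2R, 3L, 3R or X (CR46481, CR46482, CR46483, CR46472, CR44922, CR45180, CR46450, CR44997 and CR45347). These stretches hold much of the silenced, repeat-rich chromatin known as heterochromatin. Chromosome 4, described by the paper as mainly heterochromatic, holds CR44024 and was left out of this group and of the tested genes beside it. In young heads 4 of the 9 were called, 3 higher in H3.3K36R, beside 12.2% of the 886 tested genes in these stretches, and in old heads 5 were, 4 of them higher, beside 23.5%. CR44922 was the member called lower at both ages. CR44997 and CR45347 had genotype differences of -0.15 and -0.21 in old heads, neither called. The group was put together with earlier results of these data known, and 5 of the 9 had a group mean under 200. Those called higher, CR46481, CR46482, CR46483 and CR46472, were all among these 5. Such members had to be higher elsewhere to enter the set, and no member at 200 or more in every group was called higher here.

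**Figure D4:**
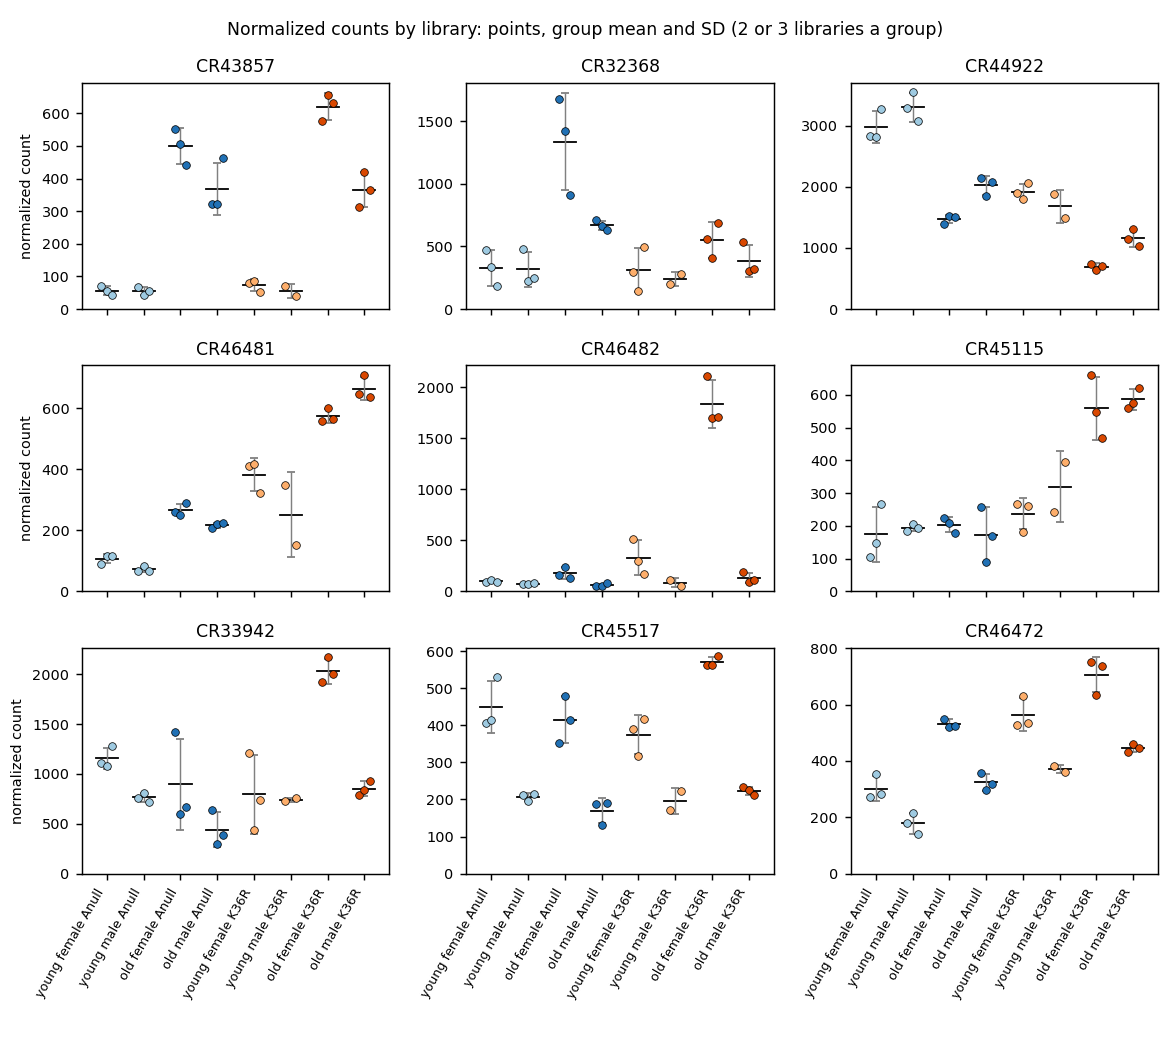
Normalized counts of 9 lncRNAs in the 8 groups (x axis: age, sex, genotype; 2 libraries in young male H3.3K36R, 3 elsewhere); points are libraries, the black bar is the mean and the grey bar the SD. Old H3.3K36R females stand at 1692 to 2107 in the panel of CR46482, above every other library, and CR43857 is above 300 in every old library and under 100 in every young one.

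Whether age acted differently in the 2 genotypes was tested as the age difference in H3.3K36R minus that in H3.3Anull heads. It was called for 4 of the 51 members (7.84%, against 2.22% of all tested genes), 2 positive (1.42%) and 2 negative (0.8%). Of the 4, only CR33942 had every group mean at 200 or more. CR45517, CR46472 and CR45180 had a group mean under 200 (lowest 170, 179 and 163) and had to be higher elsewhere to enter the set. Without young male H3.3K36R replicate 3 there were 10 calls (3 positive, 7 negative, with 2.89% of all tested genes called), and edgeR made 1 call and DESeq2 5. In the 12 female libraries alone limma made 0 calls, beside 0.248% of all tested genes, with 14 of 51 members at an unadjusted p under 0.05. The other tools were not run on females alone.

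CR33942, an RNA tied to innate immune signalling in flies, had the largest interaction. Its normalized counts were 1107, 1078 and 1279 in young and 1417, 594 and 672 in old H3.3Anull females, and 762, 809 and 720.5 and 637, 296 and 391 in males. In H3.3K36R females they were 1211, 434 and 737 in young and 1923, 2170.2 and 1998 in old heads, and in males 728 and 756 and 784, 838 and 932. Old libraries were mostly lower than young ones in H3.3Anull and higher in H3.3K36R heads, with old female H3.3Anull replicate 1 (1417) far above its 2 partners. Old H3.3K36R females were above all other libraries. CR33942 fell with age in H3.3Anull (-0.67 ± 0.25, adjusted p = 0.032) and rose in H3.3K36R heads (0.91 ± 0.26, adjusted p = 0.00697), and the difference of 1.58 ± 0.36 passed the test (adjusted p = 0.0205). The fall was lost on leaving out any of 7 libraries, whereas the interaction was called with each library left out but not by edgeR, without the sex covariate or in females alone, where it was 1.95 (adjusted p = 0.144, unadjusted p = 0.00202 by limma). In old heads CR33942 was 2.23-fold higher in H3.3K36R (1.16 ± 0.25, adjusted p = 0.00174), and over all libraries it was higher in females (0.74 ± 0.18, adjusted p = 0.00301).

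CR45517 had an interaction of 0.64 ± 0.16 (adjusted p = 0.0397), from 390.1, 316 and 418 normalized counts in young to 562, 564 and 586 in old H3.3K36R females, against 406, 413 and 529 and 353, 478 and 415 in H3.3Anull. The negative interactions were those of CR46472 (-0.54 ± 0.13, adjusted p = 0.0264), which rose more with age in H3.3Anull (0.85) than in H3.3K36R heads (0.31), and CR45180 (-0.71 ± 0.18, adjusted p = 0.0406), which rose in H3.3Anull heads (0.43) and had a value of -0.29 in H3.3K36R heads, not called. The call of CR45517 was lost on leaving out any of 14 libraries and that of CR45180 any of 13. That of CR46472 was lost without young or old female H3.3K36R replicate 2.

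Differences between the sexes in how age acted were called for 3 members (5.88%, against 0.728% of all tested genes), 1 positive (0.608%) and 2 negative (0.12%). They were CR46482, with an age difference larger in females by 1.53 ± 0.35 (adjusted p = 0.0477), and CR44922 and CR46450, whose age differences were lower in females, at -0.62 ± 0.11 and -0.67 ± 0.15 (adjusted p = 0.0174 and 0.0384). CR46482 had a group mean under 200 and had to be higher elsewhere to enter the set. Without young male H3.3K36R replicate 3, which leaves 1 library in its group, none of the 3 was called (1.81, -0.54 and -0.63). Calls over all tested genes fell in that fit as well, so the loss was not particular to the members. With all 23 libraries DESeq2 made 6 calls. The call of CR46482 was also lost on leaving out any of 18 other libraries, and that of CR46450 any of 14. A genotype difference that depended on sex was called for 0 of the 51 in young heads (0.0% of all genes) and 0 in old ones (0.048%). By limma 4 members in young and 2 in old heads had an unadjusted p under 0.05 (6.16% and 5.36% of all genes), edgeR called 0 and 0, and DESeq2 0 and 1. Leaving out young male H3.3K36R replicate 1 also leaves 1 library in that group, so the calls of that fit are not read as a result about the members.

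The 12 miRNA transcripts did not move as a block. In H3.3Anull heads 4 rose with age (33.3%, beside 21.5% of all tested genes) and 4 fell (33.3% beside 20.4%), and in H3.3K36R heads 1 rose (8.33% beside 20.5%) and 7 fell (58.3% beside 19.9%), with median log2 fold changes of 0.04 and -0.30. CR43857 rose in both genotypes, and it reached the mean of 200 only through old heads. No genotype difference was called among them in young heads, and in old heads 5 were lower in H3.3K36R (41.7%, beside 8.59% of all tested genes) and none higher (10.0% of all), with a median of -0.23 (beside -0.0025 over all tested genes). The 5 were the transcripts of mir-277 and mir-34 (CR43459), mir-8 (CR43650), mir-276a (CR46006), mir-124 (CR45919) and mir-184 (CR44206). The reads measure the transcripts and not the mature miRNAs.

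CR43459 (chr3R:10093761-10101356), the fourth most abundant member, had 9786, 9097 and 10649 normalized counts in young H3.3Anull females and 9673, 9457 and 9682 in males, and 7044, 6821 and 7539.98 and 7533, 7011 and 7974 in old ones. Old H3.3K36R females had 6291, 6246 and 6071 and males 6534, 5748 and 5896, below every other library. It fell with age in both genotypes, with log2 fold changes of -0.41 ± 0.07 in H3.3Anull and -0.65 ± 0.08 in H3.3K36R heads (adjusted p = 8.3e-05 and 6.25e-07) and a genotype difference of -0.26 ± 0.07 in old heads (adjusted p = 0.0148). In females alone this genotype difference was -0.20 and was not called (adjusted p = 0.105). CR45054, upstream of mir-317 in the same stretch, had age differences of -0.15 and -0.34, the second called, and one of -0.24 for genotype in old heads, a call lost without old male replicate 3 of either genotype.

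CR46006, with mir-276a, was at 2197 to 2503 normalized counts in old H3.3Anull and 1499 to 1779.6 in old H3.3K36R heads, without overlap. The log2 fold change was -0.50 ± 0.07 (adjusted p = 1.86e-05). With age it rose in H3.3Anull heads (0.23 ± 0.07, adjusted p = 0.00959) and had a value of -0.06 ± 0.07 in H3.3K36R heads, not called. The interaction was not called (-0.29 ± 0.10, adjusted p = 0.162) but was without young male H3.3K36R replicate 3 (-0.38, adjusted p = 0.00945). Its neighbour CR46004, with mir-276b, had a genotype difference of -0.34 ± 0.13 in old heads (adjusted p = 0.0806). The genotype difference of CR45919 in old heads was -0.49 ± 0.08 (adjusted p = 6.97e-05) and that of CR44206 -0.24 ± 0.06 (adjusted p = 0.00978).

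**Figure D5:**
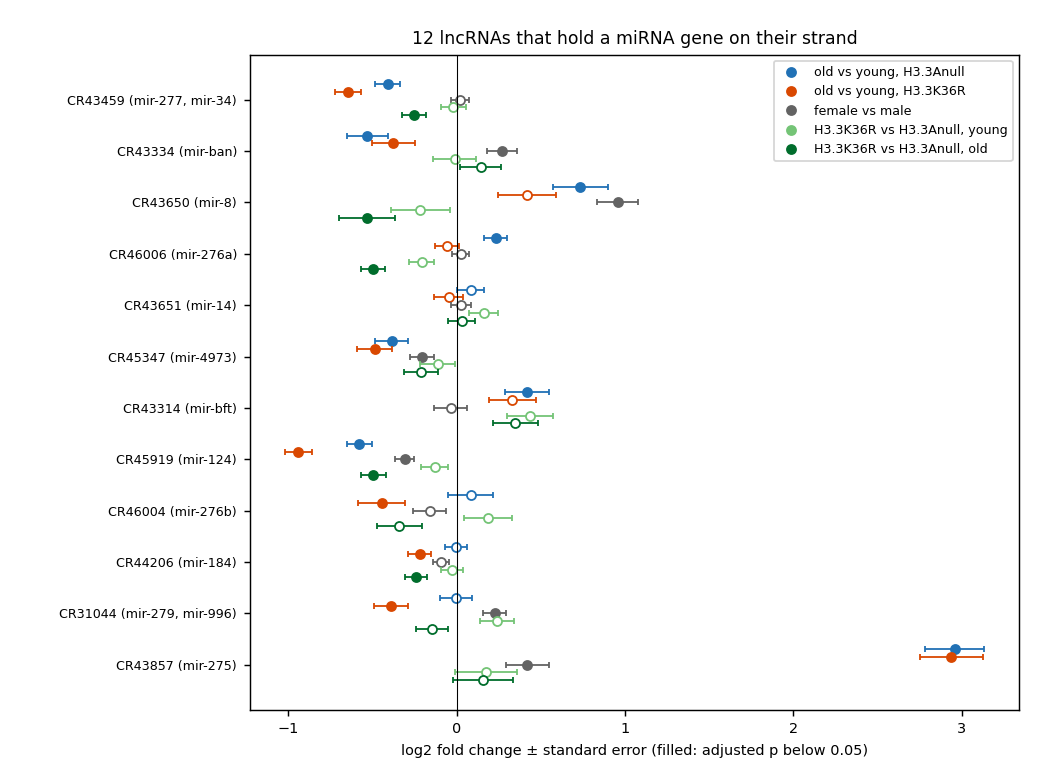
Log2 fold changes with their standard errors (x axis) of the 12 lncRNAs that hold a miRNA gene (rows, with the miRNA in brackets) in 5 comparisons; filled circles have an adjusted p below 0.05. The filled dark green circles, for genotype in old heads, all lie left of 0, and CR43857 with age lies alone near 3.

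The bantam transcript CR43334 fell with age in both genotypes. Young H3.3Anull heads had 2549 to 3566 and old ones 1529 to 2715 normalized counts (-0.53 ± 0.12, adjusted p = 0.00127), and young H3.3K36R heads 2206 to 4353 and old ones 2051 to 2632 (-0.38 ± 0.13, adjusted p = 0.0226), with overlap between old and young in both. The second call was lost without young female H3.3K36R replicate 1 or 2 or old female H3.3K36R replicate 2. CR43334 was higher in females by 0.27 ± 0.09 (adjusted p = 0.0254), a call lost without old male H3.3Anull replicate 2 or young male H3.3K36R replicate 3. The mir-8 transcript rose with age in H3.3Anull heads (0.73 ± 0.16, adjusted p = 0.000997) and its value in H3.3K36R heads was 0.42 ± 0.17 (adjusted p = 0.0586). CR43651, with mir-14, had the narrowest range of group means among the hosts, with 760.5 to 1128 normalized counts over the 23 libraries and called in no comparison.

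A further 6 members were called in none of the age, sex, genotype and age-by-genotype comparisons, CR32218, CR44092, CR45102, CR45223, CR46125 and CR46450. Together with CR43651 they made up 13.7% of the 51, beside 33.2% of all tested genes. For CR45102, young male H3.3K36R replicate 3 had 268 normalized counts against 863 or more in the other 22 libraries. In contrast, 9 members were called with age, sex and genotype alike (17.6%, beside 7.07% of all tested genes): CR31781, CR33942, CR43650, CR44922, CR45517, CR45919, CR46472, CR46481 and CR46482. Of these, CR45517, CR46472, CR46481 and CR46482 had a group mean under 200 and had to be higher elsewhere to enter the set. Abundant genes are also called more often, so neither share is on an equal footing with that of all genes.

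Another 15 non-coding RNAs outside the set have a name of their own, among them RNase P, RNase MRP and 7SL RNAs, which are not lncRNAs. Of the 15, 6 differed with age in H3.3Anull (3 higher, 3 lower) and 5 in H3.3K36R heads (3 and 2), beside 41.9% and 40.4% of all tested genes. Between the sexes 6 differed (2 and 4), beside 28.9%. The 2 higher in females were RNaseMRP:RNA (0.655) and RNaseP:RNA (0.27), both also higher with age in H3.3Anull heads (0.64 and 0.60). The sex differences included roX1 and roX2, at log2 fold changes of -5.82 and -6.55, female against male. For genotype only flam, the source of piRNAs against transposable elements in somatic cells of the ovary, was called, higher in H3.3K36R in young (0.75) and old heads (1.10). Among lncRNA:CR genes under the mean of 200, 604 had a test, and the shares called were 21% with age in H3.3Anull, 24.3% with age in H3.3K36R, 9.77% for genotype in young and 20% for genotype in old heads.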

How the data were processed

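The authors sequenced 100 nt paired reads, aligned them to dm6 with STAR 2.7.7a, counted them on genes with featureCounts of Subread 2.0.3 and deposited normalized counts, a signal obtained by dividing the counts by DESeq2 1.34.0 size factors over all 24 libraries (versions from the submitters' processing notes). The annotation release is not given in the sources used here. Whole reads were recovered from the smallest step of each library: 100% of values were whole to within 0.001. FlyBase symbols were found for 17527 of 17606 identifiers, and positions came from Ensembl 115 annotation on dm6. No sequence is shown.

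The 12493 genes that reached 10 normalized counts in 3 or more libraries were compared by limma 3.58.1 in R 4.3.3 on log2(normalized count + 1), with a trended prior variance, two-sided, Benjamini-Hochberg adjusted. Age and genotype were fitted as 4 groups (age by genotype) plus a sex term, and contrasts of sex by age or by genotype as 8 groups. All groups share one estimate of the spread. The script was tested on simulated data. The members, lists and tests were chosen with earlier results of these data known. Named genes were the 10 most abundant members, those at the edge of the rule, and up to 4 largest called differences in each direction of each comparison. Other genes named were chosen after their values were seen. Alternatives were pseudocounts of 0.5 and 5, no filter, a minimum of 50, upper-quartile scaling, edgeR 4.0.16 and DESeq2 1.42.0 on the recovered reads, weights for single libraries, a replicate block, all 24 libraries, no sex covariate, each library left out, and females alone, the last added after the data were seen. The closest pair of replicates had a chi-square per gene of 9.01 on average, so no library was counted as a repeat of another. Counting errors assume independent reads, which libraries lacking molecular identifiers do not ensure.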

Additional observations from a re-analysis of the deposited data

Results flagged for a closer look

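Interactions were called for 7 member and comparison pairs, each by the test of the difference itself in limma. With age by genotype, the log2 difference was 1.58 for CR33942 and 0.64 for CR45517, larger in H3.3K36R heads, and -0.71 for CR45180 and -0.54 for CR46472, smaller in H3.3K36R heads. With age by sex it was 1.53 for CR46482, larger in females, and -0.62 for CR44922 and -0.67 for CR46450, lower in females. The 3 age by sex differences kept their sign but not their call without young male H3.3K36R replicate 3, and the part of that library in them cannot be told apart from that of its group, which has 2 libraries.

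Young male H3.3K36R replicate 2, which no comparison of the main set used, had a mean log2 level of 10.5 over markers of male reproductive tissue, against 0.775 to 4.37 in the other 23 libraries. It was the lowest of all libraries for 2 of the 51 members and the highest for 0. No group had the 4 to 10 libraries for which single values were compared with the rest of their group.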

How the results depend on the processing

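Of 64 named gene and comparison pairs, each called with all 23 libraries, none turned direction under the alternatives run; pairs that were not called were not followed. Of the 64, 40 were called under every alternative run, and the other 24 lost the call in 57 fits with another setting and in 113 fits with 1 library left out. The number of members called moved by over 1.5 times under these settings. For genotype in young heads DESeq2 gave 10, and for genotype in old heads females alone gave 9. For age by genotype the count was 2 without a filter, 1 with edgeR, 7 with weights for single libraries, 2 with all 24 libraries, 0 with no sex covariate and 0 in females alone. For age by sex it was 1 without a filter, 1 with upper-quartile scaling, 6 with DESeq2 and 0 with weights. For sex by genotype in old heads it was 1 with DESeq2 and 1 with weights. The causes were not tested.

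With 1 library left out, the counts ran from 27 to 35 for age in H3.3Anull, 29 to 38 for age in H3.3K36R, 19 to 27 for sex, 5 to 12 for genotype in young and 17 to 29 for genotype in old heads. They ran from 1 to 10 for age by genotype, 0 to 21 for age by sex, 0 to 15 for sex by genotype in young and 0 to 1 in old heads. The highest counts came without young male H3.3K36R replicate 3 (10 for age by genotype) or replicate 1 (12, 21 and 15 for genotype in young heads, age by sex and sex by genotype in young heads), and 0 for age by sex came without replicate 3. For age by genotype 1 call was left without young or old female H3.3K36R replicate 2. A group left with 1 library is assumed to vary like the others.

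With the replicate number as a block the counts were 30, 35, 22, 6 and 23 for age in H3.3Anull, age in H3.3K36R, sex, genotype in young and genotype in old heads, 4 for age by genotype, 3 for age by sex and 0 for both contrasts of sex by genotype. The numbers were not taken as pairs in the main fit. Deviations of same-numbered libraries had a mean correlation of 0.10 over 77 pairs, 35 of them over 0.1. Those of different-numbered libraries had one of -0.05 over 154 pairs, also with 35 over 0.1. Of the 23 libraries, 12 correlated best with their own number. Whether same-numbered libraries were processed together is not given by the labels and was not tested.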
